A study of Danio rerio with 4 samples.

Results

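A set of 10 genes of appetite neuropeptides and pituitary hormones was read in whole zebrafish larvae that carried a mutation in tubgcp6. They stand on 10 of the 23236 rows of a raw count table and were taken by symbol: agrp, pomca, npy, crhb, hcrt, gh1, prl, tshba, smtla and smtlb. RNA came from Danio rerio of the AB strain, given no further treatment and collected at 7 dpf (days post fertilisation). The 2 groups were tubgcp6 mutants and their siblings, both genotyped offspring of tubgcp6+/- parents, with 2 libraries each. The labels give neither the lesion, nor which sibling genotypes were combined, nor how many animals went into a library. Nothing says whether mutant and sibling libraries shared a clutch, so the p-values reflect only how these libraries scatter, which may be technical.

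In fish, as in mammals, hypothalamic neurons release peptides that raise or lower feeding, and other peptides that act on the pituitary. Agrp and Npy promote feeding. Alpha-MSH, cut from the Pomc precursor, curbs it through melanocortin receptors, which Agrp blocks. Crh drives pituitary release of ACTH, also a Pomc product, and ACTH drives cortisol synthesis. The pituitary also makes growth hormone, prolactin, thyrotropin and, in fish, the somatolactins, which belong to the growth hormone and prolactin family.

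Gene counts summed to between 14246582 and 20652276 per library. The target gene tubgcp6 had 30.1 and 29.2 CPM (counts divided by a TMM-scaled library size, so that libraries can be compared) in mutants, against 35.3 and 38.9 CPM in siblings. Its log2 fold change (mutant over sibling in every case) was -0.33 ± 0.10 (SE), and the adjusted p was 0.0123. Without sibling replicate 2 that call was lost (adjusted p = 0.267), as it was in DESeq2 (adjusted p = 0.0585). Markers of muscle, skin, liver, brain, lens, intestine, exocrine pancreas and thyroid were all present. However, pou1f1, the transcription factor of growth hormone, prolactin and thyrotropin cells, had only 2 and 9 counts in mutants and 6 and 11 in siblings. In RNA of whole animals, fewer cells of a type cannot be told apart from less RNA per cell.

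Somatolactin beta and pomca RNA were higher in mutants and growth hormone RNA was lower, while no other hormone gene passed the test. Each of these 3 calls was lost under some alternatives, given below. Of the 10 genes, 8 had enough counts to be tested; hcrt and smtla did not. Of the 8, 2 were higher and 1 was lower (edgeR's quasi-likelihood test, adjusted p under 0.05), or 37.5%. Over all 20097 genes tested, 22.9% were higher, 21.0% were lower and 43.9% passed in either direction. Among the 10145 tested genes within the range of abundance of these 8, 38.8% passed. The share of hormone genes that passed was therefore close to the background. The median log2 fold change of the 8 genes was -0.08, beside 0.01 over all genes tested. Both mutant libraries lay above both sibling libraries in 3 of the 8 genes (36.6% of all genes tested) and below them in 4 (35.1% of all). The groups thus did not overlap in 7 of the 8 genes, as was so for 71.7% of all tested genes.

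**Figure D1:**
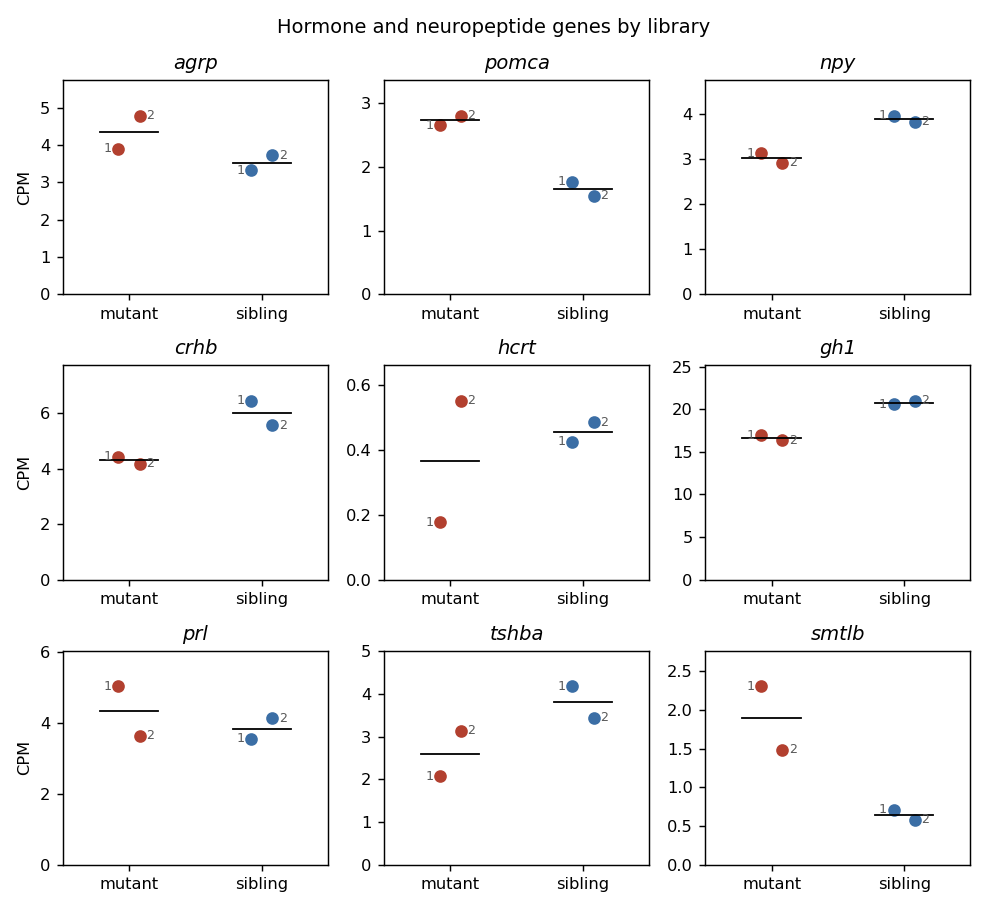
CPM (vertical axes, each from 0) of 9 of the 10 genes in the mutant libraries (left, red) and the sibling libraries (right, blue); digits are replicate numbers and bars are means of 2 libraries. For smtlb both mutant libraries (2.31 and 1.49 CPM) lie above both sibling libraries (0.708 and 0.582 CPM), for gh1 both lie below, and for prl and hcrt the groups overlap. The gene smtla, with a single read in all libraries, is not drawn.

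Neither agrp nor npy, whose peptides promote feeding, passed the test. The orexigenic gene agrp was read 66 and 87 times in mutants and 47 and 77 times in siblings, or 3.90 and 4.79 CPM in mutants against 3.33 and 3.73 CPM in siblings. Both mutant libraries were above both sibling libraries, by less than the test could call. Its log2 fold change was 0.29 (95% interval -0.19 to 0.77, adjusted p = 0.330). The gene npy, also orexigenic, was read 53 and 53 times in mutants and 56 and 79 times in siblings. These are 3.13 and 2.92 CPM in mutants and 3.97 and 3.83 CPM in siblings. Here both mutant libraries were below both sibling libraries, with a log2 fold change of -0.36 (95% interval -0.86 to 0.14, adjusted p = 0.238).

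The melanocortin precursor gene pomca, expressed in the hypothalamus and in corticotrope and melanotrope cells of the pituitary, had 45 and 51 counts in mutants and 25 and 32 counts in siblings. On the CPM scale these are 2.66 and 2.81 in mutants against 1.77 and 1.55 in siblings, and the groups stood apart. The mean was 2.73 ± 0.105 CPM in mutants, beside 1.66 ± 0.155 CPM in siblings (mean ± SD of 2 libraries), with a fitted fold of 1.66. The log2 fold change of 0.73 ± 0.30 (95% interval 0.12 to 1.35) passed narrowly, with an adjusted p of 0.0492. This call was lost when any 1 library was left out, with log2 fold changes of 0.62 to 0.81. It was also lost in DESeq2 (adjusted p = 0.257), and in edgeR under RLE or upper-quartile scaling or without the count filter. The direction held in each. Scaling libraries to neuronal genes, a scaling chosen after the data were seen, kept the call in edgeR (0.93, adjusted p = 0.0126). That scaling moved the median of all genes to 0.20.

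The gene crhb, which encodes corticotropin-releasing hormone, stood lower in mutants, short of the threshold. It had 75 and 76 counts in mutants and 91 and 115 counts in siblings, or 4.43 and 4.19 CPM in mutants against 6.45 and 5.58 CPM in siblings. All mutant values were under all sibling values. Its log2 fold change of -0.47 (95% interval -0.89 to -0.04) had an unadjusted p of 0.0334 and an adjusted p of 0.0707, so it was not called. The hypocretin precursor gene hcrt, which marks a small group of arousal neurons, had 3 and 10 reads in mutants and 6 and 10 reads in siblings. These counts overlap, and their ratio per scaled library was 0.805 (95% counting interval 0.356 to 1.78); a difference was not detectable at this depth.

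Growth hormone gene gh1 had the most counts of the 10 genes and hence the smallest standard error. It had 287 and 297 reads in mutants and 291 and 433 reads in siblings, and the scaled levels were 17.0 and 16.4 CPM in mutants and 20.6 and 21.0 CPM in siblings. The libraries of each group lay close together, but 2 values measure a spread poorly. The count ratio per scaled library was 0.799 (95% counting interval 0.715 to 0.892). The mean was 16.7 ± 0.430 CPM in mutants, beside 20.8 ± 0.270 CPM in siblings (mean ± SD of 2 libraries), and the log2 fold change was -0.32 ± 0.12 (95% interval -0.57 to -0.07, adjusted p = 0.0338). The call was lost without mutant replicate 2 (adjusted p = 0.0561), without sibling replicate 1 (0.142), without sibling replicate 2 (0.224) and in DESeq2 (0.139). Summed levels of 25 neuronal genes were also lower, at 2647 and 2650 CPM in mutants and 2960 and 3091 CPM in siblings. Scaling libraries to those genes was an alternative chosen after the data were seen, and it moved the median of all genes to 0.20. Under it gh1 stood at -0.13 in edgeR, with an adjusted p of 0.429. Whether the neuronal level bears on gh1, a pituitary hormone gene, was not tested.

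The somatolactin genes are relatives of gh1 expressed in the fish pituitary. The gene smtlb had 39 and 27 reads in mutants and 10 and 12 reads in siblings, and 2.31 and 1.49 CPM in mutants against 0.708 and 0.582 CPM in siblings. The lower mutant library (1.49 CPM) was above the higher sibling library (0.708 CPM), with few reads in each. It averaged 1.90 ± 0.579 CPM in mutants, beside 0.645 ± 0.0894 CPM in siblings (mean ± SD of 2 libraries), with a fitted fold of 2.95, a log2 fold change of 1.56 ± 0.42 and an adjusted p of 0.00313. This call held in DESeq2 (adjusted p = 0.0484) and under each other scaling, and was lost without sibling replicate 2 (log2 fold change 1.40, adjusted p = 0.0597). The paralogue smtla had 0 and 0 counts in mutants and 0 and 1 in siblings. With both groups at or under the limit of 3 counts per library (0.145 to 0.213 CPM), no fold is given.

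Prolactin gene prl, which in fish acts on salt and water balance, had 85 and 66 reads in mutants and 50 and 85 reads in siblings. That is 5.02 and 3.63 CPM in mutants and 3.54 and 4.12 CPM in siblings, values that overlap. Its log2 fold change was 0.15 (95% interval -0.33 to 0.64, adjusted p = 0.631). Thyrotropin beta gene tshba, whose product stimulates the thyroid, had 35 and 57 reads in mutants and 59 and 71 reads in siblings. Scaled levels were 2.07 and 3.14 CPM in mutants and 4.18 and 3.44 CPM in siblings, both mutant libraries under both sibling libraries. The log2 fold change of -0.52 (95% interval -1.06 to 0.03) was not called (adjusted p = 0.116), but without mutant replicate 2, the higher mutant library, it was -0.86 with an adjusted p of 0.0268. Its partner subunit gene cga, shared with the gonadotropins, was at 0.38 ± 0.24 and not called (adjusted p = 0.197).

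**Figure D2:**
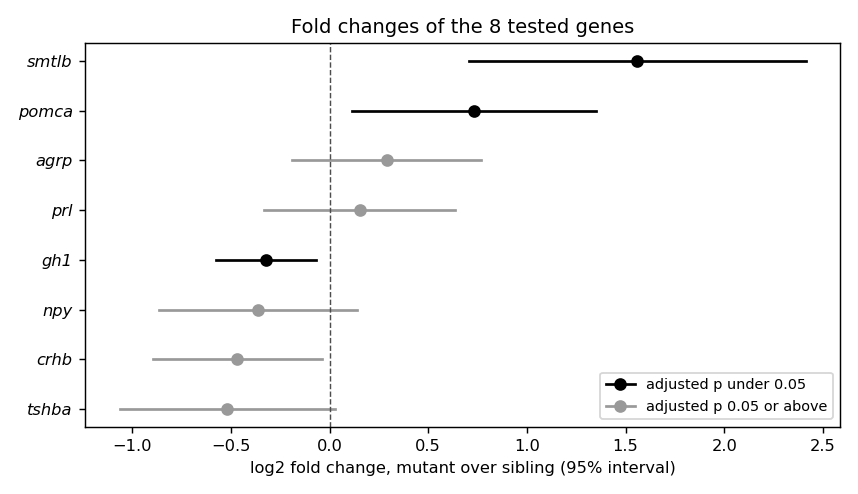
Log2 fold changes (horizontal axis, mutant over sibling) of the 8 tested genes with 95% intervals from the edgeR fit; black marks an adjusted p under 0.05. The gene smtlb (1.56) has the highest value, pomca (0.73) and gh1 (-0.32) are the other genes in black, and the intervals of agrp, prl, npy and tshba cross 0.

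Ratios of counts inside a library do not depend on how libraries are scaled. The pairs were picked after the values were seen and are given as a description. Each ratio also carries the change of its denominator, and gh1 was called lower and pomca higher in mutants. For every 100 counts of gh1, smtlb had 13.6 (95% counting interval 9.47 to 19.0) and 9.09 (5.89 to 13.5) counts in mutants, against 3.44 (1.63 to 6.41) and 2.77 (1.42 to 4.89) in siblings. For pomca the same ratio was 15.7 (11.2 to 21.5) and 17.2 (12.5 to 23.2) in mutants, against 8.59 (5.47 to 12.9) and 7.39 (4.99 to 10.6) in siblings. Both ratios were higher in both mutant libraries, though for each some mutant and sibling intervals overlap. For prl the ratio to gh1 was 29.6 (23.0 to 37.9) and 22.2 (16.8 to 29.1) in mutants, against 17.2 (12.5 to 23.3) and 19.6 (15.4 to 24.8) in siblings. This ratio too was higher in both mutant libraries, with intervals that overlap. For tshba it was 12.2 (8.33 to 17.4) and 19.2 (14.2 to 25.6) in mutants, against 20.3 (15.1 to 26.9) and 16.4 (12.6 to 21.1) in siblings, and the groups overlapped. For every 100 counts of pomca, crhb had 167 (114 to 247) and 149 (103 to 217) in mutants, against 364 (232 to 592) and 359 (241 to 550) in siblings. Here too some intervals overlap. Such intervals cover counting error only.

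**Figure D3:**
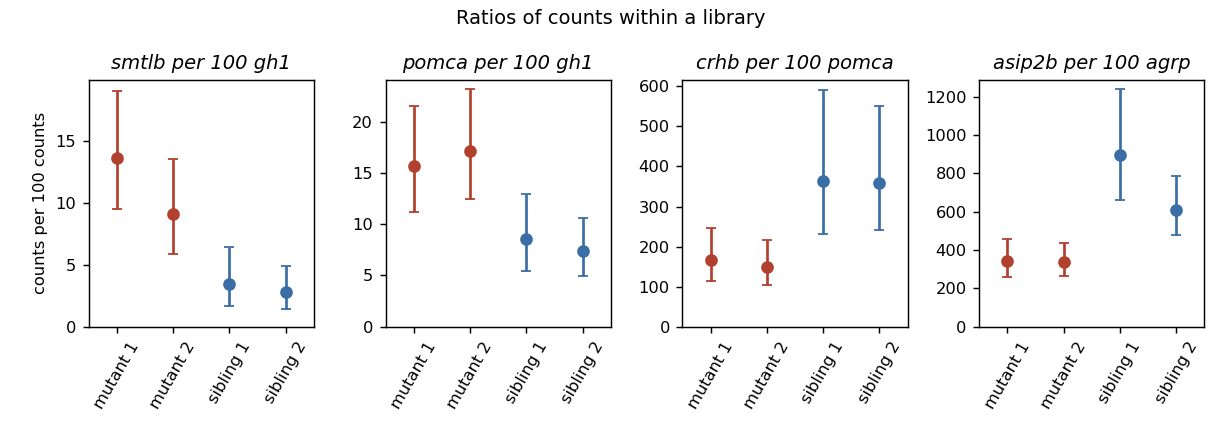
Counts of 1 gene per 100 counts of another in the same library (vertical axes, from 0) for mutant replicates 1 and 2 (red) and sibling replicates 1 and 2 (blue), with 95% exact binomial counting intervals. The ratio of smtlb to gh1 is 13.6 and 9.09 in mutants against 3.44 and 2.77 in siblings, and those of crhb to pomca and asip2b to agrp are lower in both mutant libraries.

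Distances were taken between centred log2 CPM profiles over the 4 libraries. Among the genes searched, those nearest to smtlb were hsh2d (distance 0.101), eva1bb (0.192) and ccdc80l2 (0.195). Those nearest to gh1 were eprs1 (0.00908), eno2 (0.0143) and dhdhl (0.0193). Of the hormone genes, npy had the profile nearest to that of gh1 (0.0728) and pomca the one nearest to that of smtlb (0.855).

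Partner genes of the melanocortin system were lower or did not pass. Beside the counts of this list and the later ones, 22.9% of all genes tested were higher and 21.0% lower. Of 13 tested receptors, antagonists, accessory proteins and processing enzymes, 0 were higher and 4 lower, with a median log2 fold change of -0.35. At an unadjusted p under 0.05 the counts were 0 and 5, and in DESeq2 0 and 3. With libraries scaled to neuronal genes 1 was higher and 1 lower, and likewise without sibling replicate 2. The agouti family gene asip2b, listed by RefSeq also as agrp2 and known in zebrafish from the pineal gland, had 13.4 and 16.2 CPM in mutants against 29.8 and 22.8 CPM in siblings. It fell by 0.81 ± 0.14 on the log2 scale (adjusted p = 1.5e-05), whereas its relative agrp was not called. For every 100 counts of agrp, asip2b had 344 and 339 in mutants, against 896 and 610 in siblings. The other 3 that fell encode enzymes that cut and trim Pomc and other prohormones: cpe (-0.36 ± 0.08), pcsk1 (-0.41 ± 0.12) and pcsk2 (-0.30 ± 0.11). The calls of these 3 enzyme genes were lost without sibling replicate 2, and that of pcsk2 also without mutant replicate 1 or sibling replicate 1 and in DESeq2 (adjusted p = 0.115). The log2 fold change of pcsk1 was -0.26 without mutant replicate 1.

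Receptors for the appetite peptides, and the ghrelin gene ghrl listed with them, gave no calls. Of 8 tested genes, 0 were higher and 0 lower at the adjusted threshold, and likewise in DESeq2. At an unadjusted p under 0.05, 1 was higher, and 4 more genes had too few counts. The leptin receptor gene lepr had 47.6 and 54.1 CPM in mutants against 43.2 and 43.6 CPM in siblings. Its log2 fold change was 0.23 ± 0.10 (adjusted p = 0.0590, or 0.0390 with the replicate number as a block). The adjusted p was 0.0733 under RLE scaling, 0.0983 under upper-quartile scaling and 0.211 in DESeq2. Leaving out mutant replicate 1 gave a log2 fold change of 0.31, and leaving out mutant replicate 2 gave 0.13. The hypocretin receptor gene hcrtr2 had 3 and 8 counts in mutants and 12 and 13 in siblings, at -1.18 ± 0.60 (adjusted p = 0.109).

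Along the Crh and cortisol axis, 6 of 17 tested genes were lower and 1 was higher, with a median of -0.04, or 0.06 without mutant replicate 2. Without sibling replicate 2, 4 were lower. The receptor gene of Crh, crhr1, had 9.52 and 11.7 CPM in mutants against 16.2 and 16.2 CPM in siblings (-0.61 ± 0.14). Urotensin 1 gene uts1, a Crh-related peptide, had 5.32 and 5.01 CPM in mutants against 8.57 and 9.99 CPM in siblings (-0.86 ± 0.18). Both were clear of overlap, in the same direction as the uncalled crhb. The mineralocorticoid receptor gene nr3c2 (-1.32 ± 0.14) and klf9, which responds to cortisol and to thyroid hormone (-1.03 ± 0.09), fell too. From the same list, nr3c1 (-0.10 ± 0.09) and fkbp5 (0.06 ± 0.09) were not called. In steroid synthesis, cyp11c1, of the last step to cortisol, fell by 0.99 ± 0.30, while star, of cholesterol entry into mitochondria, rose by 0.47 ± 0.15. The synthesis genes cyp11a2 (0.29 ± 0.46), cyp17a1 (0.20 ± 0.22), cyp17a2 (0.09 ± 0.26), cyp21a2 (0.41 ± 0.27) and hsd3b1 (0.32 ± 0.37) were not called. The calls of cyp11c1 and star were lost in DESeq2 (adjusted p = 0.0772 and 0.0769) and without sibling replicate 2, and that of star also without mutant replicate 1, where its log2 fold change was 0.25.

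Genes around growth hormone moved in both directions, beside 22.9% higher and 21.0% lower over all genes tested. Of 23 tested genes, 6 were higher and 1 lower, with a median of 0.01; in DESeq2 and without either sibling replicate in turn, 4 were higher. The releasing hormone gene ghrh had 15 and 17 reads in mutants and 1 and 5 reads in siblings, a count ratio of 5.28 (95% counting interval 2.18 to 15.5). It was higher in both mutant libraries (adjusted p = 0.00358), and in DESeq2 the adjusted p was 0.0591. Its fitted log2 fold change of 2.36 was 1.88 without sibling replicate 1 and 3.55 without sibling replicate 2, with few sibling counts behind each. Of 4 tested genes of the inhibitory somatostatin family, 3 were higher: sst1.1 (0.85 ± 0.12), sst1.2 (0.64 ± 0.18) and cort (0.39 ± 0.13). The other, sst6, stood at -0.27 ± 0.25 and was not called (adjusted p = 0.388). Somatostatins are made in pancreatic islets and gut as well as in the brain, so whole-animal levels do not locate the change. The calls of sst1.2 and cort were lost without sibling replicate 1, and that of cort also without sibling replicate 2 and in DESeq2.

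Downstream of growth hormone, the receptor gene ghrb had 32.2 and 31.5 CPM in mutants against 67.6 and 72.7 CPM in siblings (-1.14 ± 0.10, adjusted p = 4.73e-11). This was less than the sibling level by more than the spread in either group. The other growth hormone receptor gene, ghra, was not called (-0.22 ± 0.15, adjusted p = 0.255). The insulin-like growth factor gene igf1 had only 14 and 16 counts in mutants and 26 and 24 in siblings (-0.75 ± 0.41, adjusted p = 0.140). In contrast igfals, which encodes a carrier subunit for circulating Igf, rose by 1.21 ± 0.30 and igf2a by 0.51 ± 0.14. The paralogue igf2b had 86.9 and 73.6 CPM in mutants against 73.5 and 70.4 CPM in siblings. It was not called (0.16 ± 0.09, adjusted p = 0.174). The call of igf2a was lost without sibling replicate 2.

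The largest differences among these partner lists were in the thyroid axis. Of 16 tested genes, 2 were higher and 3 lower, with a median of -0.25; without mutant replicate 1, 6 were lower. Thyroglobulin gene tg, the precursor protein of thyroid hormone, had 767 and 609 reads in mutants and 3254 and 4913 reads in siblings, or 45.3 and 33.5 CPM in mutants and 231 and 238 CPM in siblings. Iodide transporter gene slc5a5 had 31 and 14 reads in mutants and 98 and 147 reads in siblings. Both thyroid genes were lower in both mutant libraries, with log2 fold changes of -2.57 ± 0.11 (adjusted p = 2.35e-18) for tg and -2.45 ± 0.28 (adjusted p = 2.59e-08) for slc5a5. The value of slc5a5 was -3.19 without mutant replicate 1 and -1.94 without mutant replicate 2. The thyrotropin receptor gene tshr had 13 and 3 reads in mutants and 11 and 24 reads in siblings (-1.13 ± 0.54, adjusted p = 0.0936). Its levels were 0.768 and 0.165 CPM in mutants against 0.779 and 1.16 CPM in siblings. Without mutant replicate 1 its log2 fold change was -2.56, a value that rests on the mutant library with 3 reads.

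Of the deiodinase, receptor and carrier genes for thyroid hormone, dio3b, thrb and ttr passed, whereas dio1, dio2, thraa and thrab did not. The deiodinase gene dio3b, whose enzyme inactivates thyroid hormone, had 33.8 and 38.4 CPM in mutants against 12.5 and 9.07 CPM in siblings (1.77 ± 0.13, adjusted p = 4.71e-12). The thyroid hormone receptor gene thrb had 22.9 and 22.9 CPM in mutants against 40.8 and 37.5 CPM in siblings (-0.77 ± 0.11). The carrier gene ttr rose by 0.28 ± 0.10, a call lost without sibling replicate 1 and in DESeq2. The calls of tg, slc5a5, dio3b and thrb held under every alternative run, apart from the scaling to neuronal genes, which was not examined for them singly. Under that scaling 3 genes of the thyroid list were higher and 3 lower.

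Among further hypothalamic and neuroendocrine peptide genes most calls were rises, beside 22.9% higher and 21.0% lower over all genes tested. Some of them are also counted in the lists above, among them sst1.1 (higher) and uts1 (lower). Of 39 tested, 10 were higher and 2 lower, with a median of 0.19, or -0.01 without mutant replicate 1. In DESeq2 and without sibling replicate 2, 5 were higher and 1 lower. The galanin gene galn had 5.44 and 6.94 CPM in mutants against 2.98 and 2.18 CPM in siblings (1.30 ± 0.24). Opioid-family precursor genes penka (0.86 ± 0.13) and pnocb (1.26 ± 0.24) rose, and nucb2a, whose protein includes the satiety peptide nesfatin, rose by 0.41 ± 0.09. Many of these peptides are also made outside the hypothalamus, including gut and spinal cord. Of 2 tested genes listed as further pituitary hormones, cga and prl2, 0 passed in edgeR, in DESeq2 or at an unadjusted p under 0.05. Both are also counted in the lists above, cga in the thyroid axis and prl2 around growth hormone. The gonadotropin genes fshb and lhb had 3 or fewer counts in each library, and pomcb also had too few counts to be tested.

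**Figure D4:**
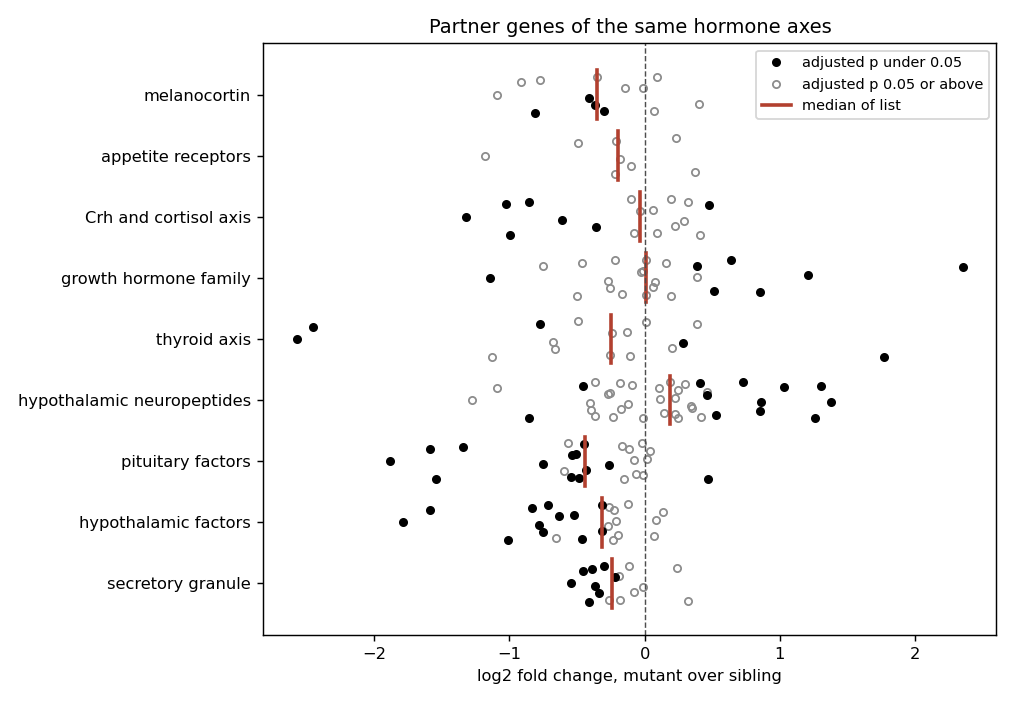
Log2 fold changes (horizontal axis, mutant over sibling) of the tested genes in 9 lists of partner genes (rows); filled points have an adjusted p under 0.05, open points do not, and red bars are medians. Points are spread vertically only for legibility. The lowest points are tg (-2.57) and slc5a5 (-2.45) and the highest is ghrh (2.36).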

How the data were processed

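The authors deposited raw read counts per gene, whole numbers with no normalization, for 2 mutant and 2 sibling libraries. Per the submitters' processing notes, the build was GRCz11 and the tools included STAR 2.7.10a, fastp 0.23.2, featureCounts 2.0.1, DESeq2 1.26.0 and R 4.2.2. Neither annotation nor strand setting is given in the sources used here, so reads of overlapping genes may be mixed. Groups came from the sample titles. The hormone genes and the gene lists were chosen with earlier results of these data known.

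In R 4.3.3, edgeR 4.0.16 removed 3139 low rows (filterByExpr), applied TMM scaling and tested mutant over sibling with the quasi-likelihood test over the remaining 20097 genes, with Benjamini-Hochberg adjustment at 0.05. The standard error is the log2 fold change over the root of F. Alternatives were DESeq2 1.42.0, RLE and upper-quartile scaling, no filter, a replicate block and leaving out each library. Same-numbered libraries did not deviate together (correlation 0.0182). Of 241 distinct list genes, 216 matched a single row. Some genes stand in several lists, so the counts of the lists are not independent. Named partners are direct partners of the hormone genes or among the 6 smallest p-values of a list. Nearest profiles (3 genes each) needed a log2 CPM of at least 1 and a name on a single row. Genes whose names hold a colon or only digits were left out of that search. RefSeq (GRCz12tu) gave synonyms only. No sequences are shown.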

Additional observations from a re-analysis of the deposited data

How the results depend on the processing

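With libraries left out one at a time, the genes called higher numbered 2977 to 4840 and those called lower 2429 to 4680, against 4595 and 4225 with all 4. Among the hormone genes, the number higher (2) was 0 to 1 and the number lower (1) was 0 to 1; among list genes, those higher (25) numbered 13 to 32 and those lower (54) 33 to 58. DESeq2 called 1 hormone gene higher, 0 lower and 13 list genes higher. RLE scaling, upper-quartile scaling and no filter each called 1 hormone gene higher, since pomca stood at 0.72, 0.70 and 0.73 with adjusted p of 0.0530, 0.0585 and 0.0587. DESeq2 gave 0.71 for pomca and -0.33 for gh1. Scaling to neuronal genes called 2 higher (pomca 0.93, smtlb 1.76) and 0 lower (gh1 -0.13). Leaving out 1 library gave ranges of 0.62 to 0.81 for pomca, -0.36 to -0.30 for gh1, -0.10 to 0.37 for prl, -0.86 to -0.26 for tshba, 1.21 to 1.85 for smtlb and -0.62 to 0.015 for sst6; the reversals were prl without mutant replicate 1 and sst6 without mutant replicate 2. With the replicate block, pomca stood at 0.73 and kept its call (adjusted p = 0.0475); the libraries share only a number, lepr became a call (adjusted p = 0.0390), and calls over all genes were 4827 higher and 4521 lower. The cause of the lost calls was not tested. Depth limits hcrt, smtla and smtlb most, the hormone genes with the fewest counts.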

Other observations

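Transcription factor genes of the hypothalamus and pituitary were mostly lower or did not pass. Of 24 tested pituitary transcription factor genes, 12 were lower and 1 higher (median log2 fold change -0.44). The lower ones included neurod4 (-1.88 ± 0.12), insm1a (-1.54 ± 0.14), ascl1a (-1.34 ± 0.18) and six3b (-0.51 ± 0.12, or -0.34 without mutant replicate 2); the 1 that rose was six1a (0.47 ± 0.16), named after its value was seen, a call that neither DESeq2 nor the fit without sibling replicate 2 made. Without sibling replicate 2, 8 were lower, and with libraries scaled to neuronal genes 7 were. Of 23 tested hypothalamic transcription factor genes, 0 were higher and 12 lower (median -0.32), with the same counts at an unadjusted p under 0.05; 0 were higher and 8 lower in DESeq2, and 0 and 7 without sibling replicate 2. With libraries scaled to neuronal genes, 1 was higher and 8 lower. They included fezf2 (-1.79 ± 0.19), rx3 (-1.59 ± 0.28), lhx9 (-0.83 ± 0.10), isl1 (-0.75 ± 0.10) and arnt2 (-0.46 ± 0.09). Both rx3 and isl1 are also counted among the lower pituitary genes. Several of these genes also act in the retina, and lens gene cryaa, a marker of the eye, was at -3.04 ± 0.12; the part of the eye in these values was not tested.

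Of 16 tested secretory granule genes, 0 were higher and 8 lower (median -0.24), or 0 and 6 in DESeq2, 0 and 3 without sibling replicate 2, 1 and 10 at an unadjusted p under 0.05, and 1 and 2 with libraries scaled to neuronal genes. The lower genes cpe, pcsk1 and pcsk2 are also counted in the melanocortin list. Other examples were scg3 at -0.45 ± 0.09, ptprna at -0.39 ± 0.09 and cadpsa at -0.55 ± 0.14. Of 25 tested neuronal genes, 8 were lower and 1 higher (median -0.14); without sibling replicate 2, 4 were lower. Examples were elavl3 at -0.64 ± 0.09, snap25b at -0.57 ± 0.09 and syt1a at -0.41 ± 0.08; the 1 that rose was uchl1 (0.48 ± 0.14), also named after its value was seen, and its call was lost in DESeq2 and without sibling replicate 1.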
